A study of Mus musculus with 7 samples.

Results

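The mid-sized expanded clonotypes of old intraepithelial lymphocytes (IEL) were the T cell clones of the aged small intestine that were large without being among the 3 dominant ones. Members were the old IEL cells whose clonotype, the set of cells that share a rearranged T cell receptor (TCR), held 10 or more cell barcodes of the expression matrix, after the 3 largest clonotypes were left out. The rule gave 31 clonotypes and 856 cells, which were 14.7% of the 5811 old IEL cells and 21.9% of the 3906 that had a clonotype. The whole series held 21365 cells. The clonotypes numbered 4 to 34 in order of size, held 10 to 77 cells with a median of 18, and were set against 664 old IEL cells that were each alone in their clonotype. Just inside the size threshold lay 2 clonotypes of 10 cells, clonotypes 33 and 34, and just outside it lay 7 clonotypes of 9 cells.

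T cells came from C57BL/6 mice, reported as male, of 6 weeks (young) or 80 weeks (old). They were taken from the epithelium of the small intestine (IEL) and from the spleen (SP), as 1 pool for each age and organ, of 3 mice per the labels. The methods among the sources used here name males as the models but also mention the use of both sexes, which was not resolved. Droplet 5′ gene expression was read together with a TCR library, and levels are given here as unique molecular identifiers (UMIs) per 10000 UMIs of a cell group. The IEL loaded were a blend of equal numbers sorted as CD3+ and as CD3+CD4+. CD4 cells were thereby enriched, which raised the CD4 shares below and made it easier for a CD4 clonotype to reach 10 cells. Mice within a pool cannot be told apart, so nothing here was tested: intervals are exact 95% intervals (Poisson for levels, Clopper-Pearson for shares) that cover counting error alone. Old IEL held 33314700 UMIs in all, and the median cell held 5231.5 UMIs in the mid-sized clonotypes and 5471 in the single-cell clonotypes. No barcode was shared between pools.

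Intraepithelial lymphocytes sit between the epithelial cells of the gut and live there for long periods. Conventional IEL derive from CD4 or CD8αβ T cells (the β chain is encoded by Cd8b1) that were activated elsewhere, while natural IEL acquire their program in the thymus, often carry the CD8αα homodimer (Cd8a without Cd8b1), and express Fcer1g, a signalling adaptor shared with Fc receptors and natural killer (NK) cell receptors. CD4 T cells of the epithelium can gain Cd8a and a cytotoxic program after entry. A clone descends from 1 cell, so a lineage gene that is fixed early is carried by all or none of its cells.

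The receptors themselves are shown first, for the clonotypes on which later results turn. Complementarity-determining region 3 (CDR3) is the junction of the V and J segments, read 5′ to 3′, and capitals mark the bases between the germline matches to V and to J (GRCm38). A TRB junction also holds a D segment, which was not matched, so the capitals of a TRB include any germline D bases. Like junctions in clonotypes 11 and 13 are shown too, but the run of bases they share also lay in the TRB of clonotypes 24 and 28. Whether it was a D segment was not tested. The TRA of clonotypes 4 and 20 is shown because it recurred in young mice, and the TRB of clonotype 6 because it was also the TRB of the second largest clonotype.
clonotypes 4 and 20, TRA: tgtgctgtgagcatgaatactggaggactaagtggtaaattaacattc
clonotype 4, TRB: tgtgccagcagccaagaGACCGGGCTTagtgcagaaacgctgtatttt
clonotypes 2 and 6, TRB: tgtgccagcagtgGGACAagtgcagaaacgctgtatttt
clonotype 8, TRB: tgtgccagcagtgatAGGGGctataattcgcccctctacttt
clonotype 11, TRB: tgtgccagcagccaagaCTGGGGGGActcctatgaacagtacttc
clonotype 13, TRB: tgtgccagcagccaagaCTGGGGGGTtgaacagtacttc
clonotype 29, TRA: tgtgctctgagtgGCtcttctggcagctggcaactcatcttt
clonotype 9, TRA: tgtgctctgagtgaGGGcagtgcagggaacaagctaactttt
clonotype 12, TRB: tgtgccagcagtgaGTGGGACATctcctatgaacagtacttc
The TRA of clonotypes 4 and 20 joined TRAV9D-3 (chr14:52920443-52921112) to TRAJ2 (chr14:54217836-54217901) with 0 bases between the germline matches. The TRB of clonotypes 2 and 6 joined TRBV13-1 (chr6:41116007-41116468) to TRBJ2-3 (chr6:41543223-41543271) with 5 bases between them, and those of clonotypes 11 and 13 joined TRBV5 (chr6:41062332-41062803) to TRBJ2-7 (chr6:41543810-41543856) with 9.

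Fcer1g was carried by nearly all cells of a clonotype or by few. Cells with an Fcer1g UMI made up 90.9 to 100% of 15 clonotypes and 0 to 17.6% of the other 16, and no clonotype lay between. Clonotypes were called Cd8b1 when at least 50% of their cells had a Cd8b1 UMI, otherwise Cd4 when at least 20% had a Cd4 UMI, and with Fcer1g when at least 50% had an Fcer1g UMI. The coreceptors were less clear-cut than Fcer1g. Clonotype 22 met the Cd8b1 and the Cd4 threshold, and 13 of the 61 cells of clonotype 7, a Cd4 clonotype, held both a Cd4 and a Cd8b1 UMI. After thinning to 2000 UMIs, clonotype 29 fell under the Cd4 threshold, and with thresholds of 30% for Cd8b1, 40% for Cd4 and 30% for Fcer1g clonotype 27 became Cd8b1. A Cd3 gene was detected in 100% of the cells of every clonotype, so the members were T cells. They were not 1 cell type: Cd8a was detected in 85.8% of the member cells, Fcer1g in 45.6% and Cd8b1 in 13.2%.

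The largest class was Cd4 without Fcer1g, with 13 clonotypes and 429 cells, or 50.1% of the members. These were clonotypes 5, 7 to 11, 13, 17, 18, 21, 24, 26 and 33, in which 60 to 95.5% of cells had a Cd4 UMI and 0 to 10% had an Fcer1g UMI. Another 4 clonotypes with 179 cells, or 20.9%, were Cd4 with Fcer1g: clonotypes 4 (77 cells), 6 (72 cells), 20 (18 cells) and 29 (12 cells). In all 4, 100% of cells had both a Cd8a UMI and an Fcer1g UMI, and 58.3 to 83.3% had a Cd4 UMI.

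Cd8b1 clonotypes were few. Clonotypes 12 (30 cells), 22 (17 cells) and 23 (16 cells) were Cd8b1 without Fcer1g, with a Cd8b1 UMI in 100% of their cells. Clonotype 22 also had a Cd4 UMI in 29.4% of its cells (95% interval 10.3 to 56.0%), while clonotypes 12 and 23 had none. Clonotype 32 (11 cells) was the single Cd8b1 clonotype with Fcer1g, at 90.9% (58.7 to 99.8%). The remaining 10 clonotypes with 174 cells had Fcer1g and Cd8a in 100% of cells with little Cd4 or Cd8b1; Cd4 reached 10% in clonotype 34 and Cd8b1 reached 30.8% in clonotype 27, and both were under 10% in the other 8.

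**Figure D1:**
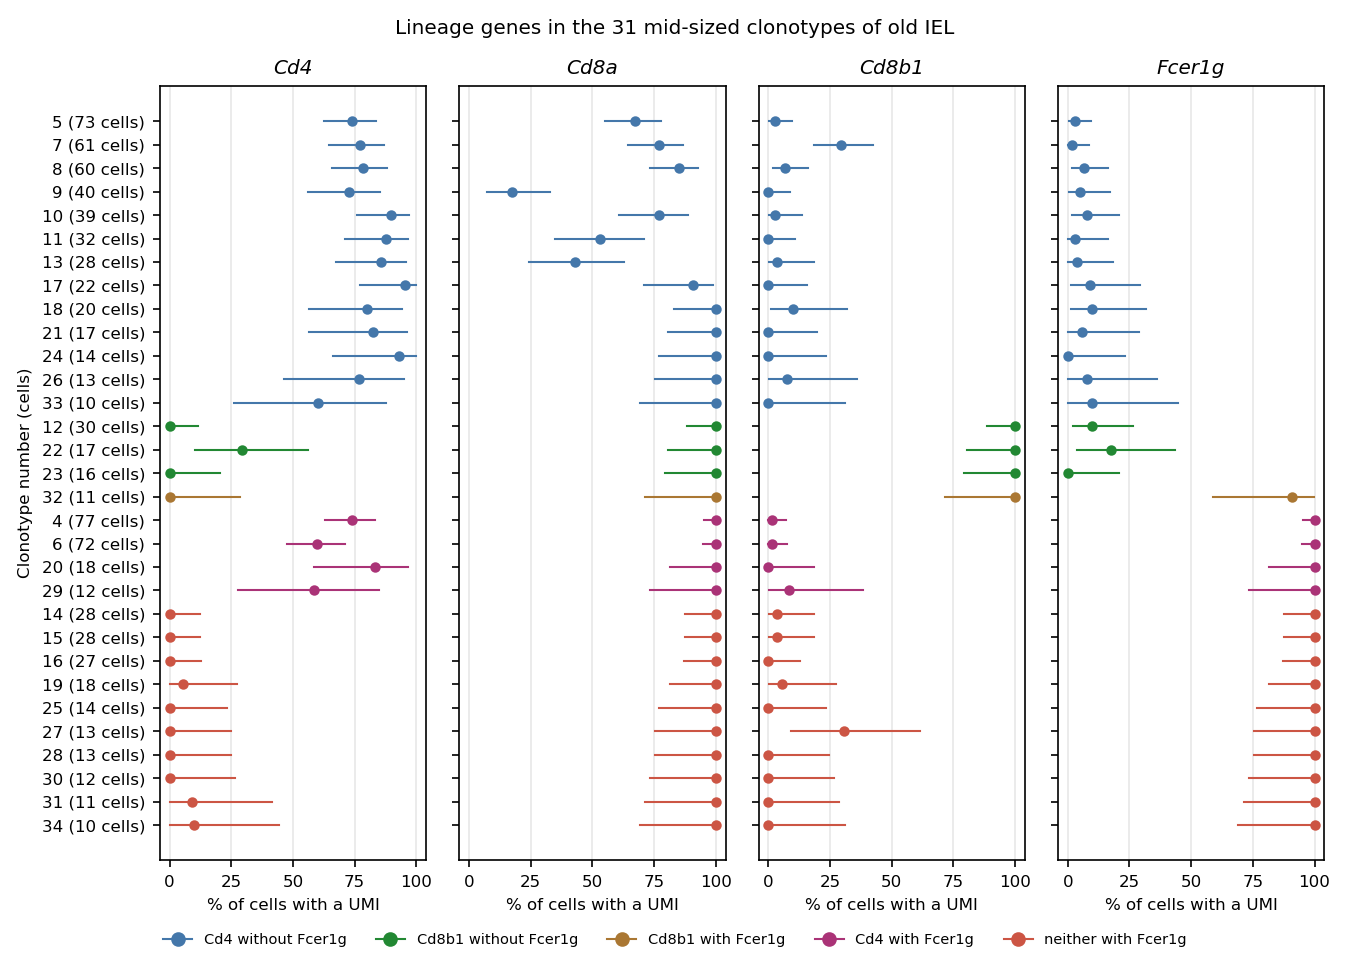
Percent of cells with at least 1 UMI of Cd4, Cd8a, Cd8b1 and Fcer1g (horizontal axes) in each of the 31 mid-sized clonotypes of old IEL (rows, with cell numbers), coloured by lineage class, with exact 95% binomial intervals. Fcer1g was near 0% or near 100% in every clonotype, whereas Cd8a ran from 17.5 to 100% among the Cd4 clonotypes without Fcer1g.

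Free RNA in droplets sets a floor for such shares, read here from young SP cells with a TRB. The CD4 group had a Cd4 UMI and the CD8 group 2 or more Cd8b1 UMIs. The groups overlapped, since 98 of the 1969 CD8 cells had a Cd4 UMI before thinning. The Cd8b1 and Cd8a shares of the CD4 group thus include cells of the CD8 group and may exceed the floor. After each cell was thinned to 2000 UMIs, Fcer1g was detected in 0.785% of CD4 and 0.711% of CD8 cells of young SP, Cd4 in 1.68% of its CD8 cells, Cd8b1 in 7.11% of its CD4 cells and Cd8a in 2.16% of its CD4 cells. The median SP cell held 5455 UMIs in the CD4 group and 6698 in the CD8 group. Without thinning, as in the clonotype shares above, Fcer1g was detected in 1.62% of these CD4 and 1.78% of these CD8 cells, and Cd8b1 in 14.15% of the CD4 cells. Among Cd4 clonotypes the highest Cd8b1 share was 29.5%, in clonotype 7, above the SP value, and whether it was expression was not tested. The smaller Cd8b1 shares in Cd4 clonotypes came from 10 to 73 cells a clonotype and were not read as expression. The Fcer1g shares up to 17.6% came from equally few cells and were not read as a lineage, although the highest lay above the SP floor. The floor of old IEL itself was not measured.

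Across cells, the members held more Cd4 than the single-cell clonotypes at equal depth. With cells thinned to 2000 UMIs, 33.7% of member cells (30.5 to 36.9%) and 19.2% of single cells (16.2 to 22.4%) had a Cd4 UMI, against 55.4% and 30.6% without thinning. Cd8a was found in 80.6% (77.8 to 83.2%) and 70.9% (67.3 to 74.4%). Fcer1g was found in 43.3% (39.9 to 46.7%) and 47.8% (43.9 to 51.7%), and Cd8b1 in 9.06% (7.21 to 11.2%) and 13.9% (11.3 to 16.7%). Member cells came from 31 clonotypes, and cells of 1 clonotype are not independent. Their intervals are therefore too narrow to compare the groups, and overlap was not read. By clonotype, 15 of the 31 members were classed with Fcer1g. Trdc, the constant region of the γδ receptor, was found in 1.76% of member cells and 5.94% of single cells. Foxp3, the master regulator of regulatory T cells, was found in 0.118% and 3.35%.

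The Cd4 share did not climb evenly with clonotype size. At equal depth it was 13.3% in clonotypes of 2 cells, 23.2% in those of 3 to 9, 33.7% in the members and 39.99% in the 3 largest clonotypes. Cells with both Cd4 and Fcer1g and without Cd8b1 made up 16% of the members (13.6 to 18.6%), 2.86% of single cells (1.73 to 4.43%) and 3.504% of cells in clonotypes of 3 to 9 (1.88 to 5.92%). Clonotypes 4 and 6 held most of those cells.

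The 15 clonotypes with Fcer1g and the 16 without it differed in many other genes. Of 3759 genes compared, 10 had a mean at least 2-fold higher in the clonotypes with Fcer1g with no overlap between the classes (0.266% of genes), and 10 had a mean at least 2-fold lower with no overlap (0.266%). The gap between the nearest clonotypes could be small, as for Lat2, where the lowest value with Fcer1g was 1.109 and the highest without it 1.107. Fcer1g chose these classes and was left out.

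NK cell receptors and the kinases and adaptors behind them led the higher genes. Klrd1, which encodes CD94, the partner chain of NKG2 receptors, had a level of 4.68 to 18.3 with a median of 11.4 in the clonotypes with Fcer1g and of 0 to 2.46 with a median of 0.335 in the others. Lyn, a Src family kinase best known from B and myeloid cells, averaged 1.86 and 0.0359, a log2 difference of 3.85. Clnk, an adaptor related to SLP-76, averaged 2.24 and 0.0919 (log2 difference 3.61), and the linker Lat2 averaged 2.56 and 0.371 (2.50). Lyn and Clnk were near the floor in the clonotypes without Fcer1g, whereas Klrd1 reached 2.46 and Lat2 1.107 in clonotype 24. Ikzf2, the transcription factor Helios, ranged from 6.09 to 9.80 in the clonotypes with Fcer1g and from 0.0842 to 1.84 without. The surface protein Cd7 averaged 73.4 and 23.8, and the Tec family kinase Txk 2.97 and 0.669. Chn2, Mfsd10 and Pik3ap1 completed the 10. Other marker genes of natural IEL did not all follow. Tyrobp had a median of 9.32 (0.121 to 40.1) with Fcer1g and of 0 (0 to 1.57) without, so the ranges overlapped. Cd160 did not separate the classes, with a median of 5.88 with Fcer1g and 6.78 without. Klrb1b was above 0 only in clonotypes 4, 20, 28 and 31, at 0.27 to 2.865.

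Lat, the linker that a conventional TCR uses to pass its signal on, behaved the other way. Its level ran from 7.20 to 14.3 in the clonotypes without Fcer1g and from 1.44 to 6.16 in those with it, a log2 difference of -2.01. Rora, a nuclear receptor of type 17 cells, averaged 4.10 without and 0.877 with Fcer1g. Ubash3a, a brake on TCR signalling, averaged 0.582 and 0.0205, and Cish, an inhibitor of cytokine signalling, 1.58 and 0.295. Gm8369, Rgs10, Hlf, Znrf1, Sh3kbp1 and Cd82 were the other 6. Cd5 and Cd6, paired receptors that dampen TCR signals, missed the no-overlap rule because of clonotype 32: Cd5 was 2.69 to 11.6 in the clonotypes without Fcer1g, 3.70 in clonotype 32 and 0 to 0.165 in the other 14. Cd6 was 5.92 in clonotype 32 and 0 to 0.0377 in those 14.

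**Figure D2:**
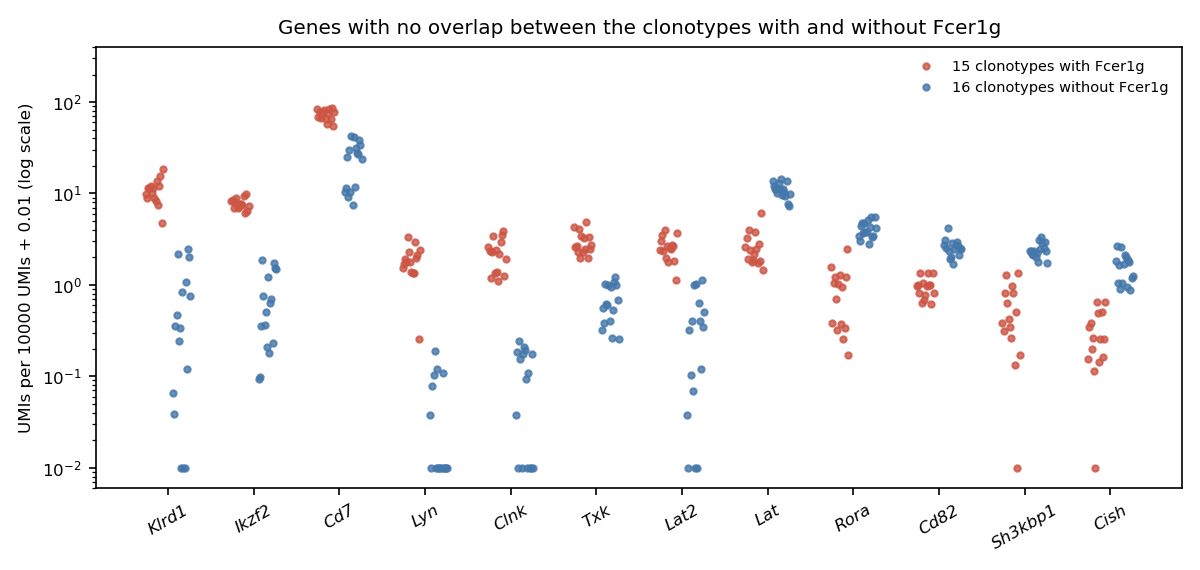
Level in UMIs per 10000 plus 0.01 (vertical log axis) of 12 of the 20 genes whose levels did not overlap between the 15 clonotypes with Fcer1g and the 16 without; each point is 1 clonotype, and the 12 genes were chosen after their values were seen. Klrd1, Ikzf2, Cd7, Lyn, Clnk, Txk and Lat2 were higher and Lat, Rora, Cd82, Sh3kbp1 and Cish lower in the clonotypes with Fcer1g.

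By gene list, 10 of 13 compared genes of the NK receptors and their adaptors were higher in the clonotypes with Fcer1g, 4 of them without overlap (Cd7, Clnk, Klrd1 and Lyn), and the median log2 difference was 3.06 against 0.01 over all genes. Inhibitory receptors were higher for 9 of 10, with a median of 1.03 and none without overlap. Lag3 ran from 1.11 to 7.57 with Fcer1g and from 0.0842 to 3.93 without. The inhibitory receptor Ctla4 went the other way, with a median of 0.569 (0 to 2.11) with Fcer1g and 4.83 (1.11 to 15.7) without. Chemokines and cytokines were higher for 2 of 11, with a median of -1.32. Of those, Ccl4 had a median of 9.85 with and 37.5 without Fcer1g, and Ifng of 0.751 and 3.31. The cytotoxic granule list was split less: 9 of 14 were higher, with a median of 0.23. Gzma, a granzyme, had a median of 416 with Fcer1g and 244 without, and Gzmb, another, of 60.7 and 60.0.

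Cd4 and Cd8b1 marked off much less than Fcer1g did. These 2 genes chose the classes compared here and are not in the counts that follow. Between the 4 Cd4 clonotypes with Fcer1g and the 10 with neither coreceptor, 0 of 3842 genes were higher and 0 lower without overlap (0.0% each). The largest differences overlapped: Tcrg-C1, a γ chain constant region, averaged 6.33 and 1.11, and Klra7, an NK receptor of the Ly49 family, was 0 in all 4 Cd4 clonotypes and 0 to 11.4 in the others. Between the 3 Cd8b1 and the 13 Cd4 clonotypes without Fcer1g, only Fam241a was higher (3.20 and 1.45) and only Atxn7l1 lower (0.298 and 0.737) of 3630 genes (0.0275% each). These ranges rested on 3 and 4 clonotypes on 1 side.

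Zbtb16, which encodes PLZF, the transcription factor of innate-like T cells, split the Cd4 clonotypes with Fcer1g. It was detected in 57.1% of the cells of clonotype 4, 38.9% of clonotype 20 and 50% of clonotype 29, and in 1.39% of clonotype 6. Clonotypes 4 and 20 shared their TRA, and no TRB was recorded for clonotype 20. Clonotype 6 had no TRA, and its TRB was that of clonotype 2, the second largest of old IEL with 673 cells. The median UMI count per cell was 3524.5 in clonotype 6 and 5686 in clonotype 2, and the TRB had a median of 8 and 17 TCR UMIs a cell. The same TRB was also read in 17 of the 60 cells of clonotype 8, at a median of 5 UMIs against 15 for that clonotype's own TRB. Of those 17 cells, 1 had an Fcer1g UMI, as had 4 of the 60. The source of these chains was not tested.

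Clonotype 16 stood apart among the Fcer1g clonotypes with neither coreceptor. Trdc was detected in 59.3% of its 27 cells (38.8 to 77.6%), at a level of 1.75, although its clonotype was defined by a TRB; no TRA was recorded for it. It was the only member above the single-cell level of Trdc.

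The TRA of clonotypes 4 and 20 was found again in young IEL. There, 44 cells of 8 clonotypes carried the same 48 bases, with 7 different TRB partners. All 44 had a Cd8a UMI and an Fcer1g UMI (92.0 to 100%), 56.8% a Cd4 UMI (41.0 to 71.7%) and 40.9% a Zbtb16 UMI (26.3 to 56.7%). Over the 2810 young IEL cells with a clonotype, the shares were 64.4% for Cd8a, 41.3% for Fcer1g, 46.6% for Cd4 and 10.3% for Zbtb16. The Fcer1g and Zbtb16 shares of cells with this TRA were thus above those of young IEL at large, in other mice. Cells of 1 clonotype are not independent, and the shares are not given per clonotype. Of the 44 cells, 16 had 2 TRA chains. Their median of 7449 UMIs was above the 6489.5 of young IEL cells with a clonotype.

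The TRA CDR3 of clonotype 29 gave a like picture in fewer cells. It was carried by 13 young IEL cells of 1 clonotype, all 13 with Fcer1g and Cd8a and 69.2% with Cd4. Zbtb16 was detected in 15.4% of them (1.92 to 45.5%), an interval that takes in the young background. All 13 had a second TRA, and the V segment was called TRAV9D-4 in young and TRAV6-5 in old cells. The TRB of clonotype 6 gave another picture: it was read in 17 young IEL cells of 3 clonotypes, of which 23.5% had Fcer1g (6.81 to 49.9%). Its median there was 4 TCR UMIs a cell, against 8 in clonotype 6 and 17 in clonotype 2. Whether it was the receptor of those young cells was not tested.

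**Figure D3:**
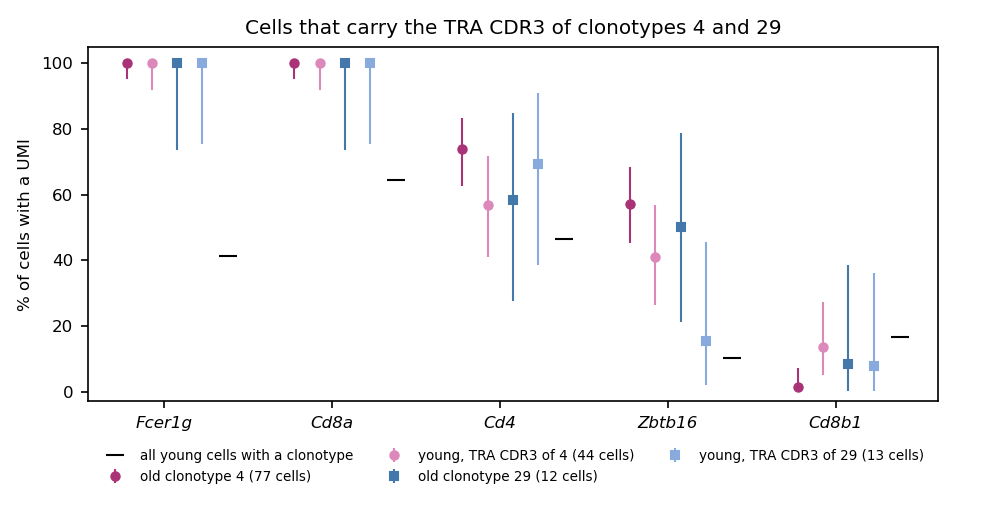
Percent of cells with a UMI (vertical axis) of 5 genes in clonotypes 4 and 29 of old IEL and in the young IEL cells that carry the same TRA CDR3, with exact 95% binomial intervals; black bars give the share over the 2810 young IEL cells with a clonotype. All cells with either TRA CDR3 had Fcer1g, in old and in young mice, although for clonotype 29 the V segment was called differently in old and young cells.

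Cells outside the members gave a second look at lineage. Old IEL cells in clonotypes of under 5 cells that carried a member's CDR3 numbered 99 and matched 20 of the 31 clonotypes; 90 of them had 1 chain only. They had not entered the classes above. Of the 20 such cells that matched clonotypes with Fcer1g, 20 had an Fcer1g UMI, and of the 79 that matched the others, 4 had one. For clonotype 12, 9 of 9 had Cd8b1. For clonotype 9, 3 of 3 had Cd4 and 0 of 3 had Cd8a, as its own cells did in 72.5% and 17.5%. The coreceptors did not match in every clonotype. Cd4 was found in 1 of 6 such cells for clonotype 4 and 0 of 3 for clonotype 20, against 74.0% and 83.3% of their own cells. For clonotype 13, 2 of 5 had Cd8b1, against 3.57% of its own cells.

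Such cells also bear on what a single-cell clonotype is. Of the 664, 255 shared a CDR3 with another clonotype of the pool, 94 of them with a member and 23 with 1 of the 3 largest, and 197 of the 255 had only 1 chain. Both a TRA and a TRB were recorded for 28 of the 31 members (90.3%) and for 366 of the single cells (55.1%). These shares are unlike measures, since the first is per clonotype, over many cells each, and the second is per cell. The single-cell group thus held receptors that were also seen in larger clonotypes, and the comparisons below are given without the 255 as well. Junctions were alike in length: the CDR3 had a median of 39 bases in the members and 42 in single cells for TRA, and 42 in both for TRB, with 3 and 3 bases between V and J for TRA and 9.5 and 10 for TRB. The 31 TRA chains used 22 V genes and the 32 TRB chains 16.

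Against single cells as a whole, the members were set apart by what they lacked. A gene was counted when its mean over clonotypes, each given equal weight, differed at least 2-fold from the single-cell level and at least 80% of the clonotypes lay on the same side. Of 3621 genes, 0 were higher (0.0%) and 40 were lower (1.10%). A gene that a few single cells express strongly falls below the single-cell level in most clonotypes by construction, so the share of single cells that express it is given beside the levels.

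The 40 genes were of several kinds. Tnfrsf4 (OX40, a costimulatory receptor) averaged 0.0477 in the members and 1.45 in single cells, of which 12.8% had a UMI, and was lower in 31 of 31 clonotypes. Tcf7, the transcription factor TCF-1 of naive and memory cells, averaged 0.405 and 1.37 (25.3% of single cells), also lower in 31 of 31. Klf2, which drives exit from tissue, averaged 0.271 and 1.21 (16.7%), lower in 30. Cd2, an adhesion receptor, averaged 0.193 and 1.03 (24.8%), lower in all 31. For Il17a the averages were 0.604 and 6.23, but only 4.82% of single cells had a UMI, and the 1 member above was clonotype 9, at 18.6. Of the 14 genes of naive and circulating T cells 7 were compared, all lower, and 3 were counted (Cd28, Klf2 and Tcf7). Tnfrsf4 and Tnfrsf9 were the 2 counted of 15 early activation genes compared, of which 7 lay above 0 and 8 below.

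Genes listed for other cell types were also among the 40. Ighm, the μ heavy chain of B cells, was detected in 19.6% of single cells and Cd74, an antigen presentation chaperone, in 6.63%; both were counted lower, as was Epcam, an epithelial adhesion gene detected in 19.6%. Summed over 7 B cell genes, 2 of which were compared, the level was 1.83 in single cells and 0 to 3.20 over the member clonotypes. Summed over 10 epithelial genes, 1 of which was compared, it was 0.596 and 0 to 1.47, and over 7 myeloid genes 2.01 and 0.842 to 4.49. Epcam alone was at 0.540 in single cells, so it made up most of the epithelial sum. Which cells the RNA of these genes came from was not tested, nor was its part in the difference. Of the 40 genes, 40 were also lower in clonotypes of 3 to 9 cells of old IEL, against 50.9% of all genes, and 35 were lower in the mid-sized clonotypes of young IEL, against 47.5%. The same single cells entered the first of these counts, and the young pool was separate.

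The comparison was then made among cells alike in their Cd4, Cd8b1 and Fcer1g UMIs. Among cells with a Cd4 UMI and no Cd8b1 or Fcer1g UMI, 308 cells of the 13 Cd4 clonotypes without Fcer1g faced 165 single cells, at a median of 5078.5 and 5085 UMIs. Of 3678 genes, 12 were higher (0.326%) and 91 lower (2.47%), with a median log2 difference of 0.01 over all genes.

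Gzma, Ccl5 and Cd8a were among the 12 higher genes. Gzma (chr13:113093825-113100981 on GRCm38) was at 75.7 to 317 in the 13 clonotypes, averaged 217 and was at 99.4 (97.4 to 101) in single cells, and 12 of 13 clonotypes lay above. The chemokine gene Ccl5 (chr11:83525778-83530518) was at 54.4 to 607, averaged 304 and was at 150 in single cells, again with 12 of 13 above. Cd8a (chr6:71373427-71379173) averaged 13.4 with a range of 0.415 to 26.9, against 4.71 (4.28 to 5.18) in single cells, and was above in 11 of 13. Dapk2, a death-associated kinase, averaged 3.90 against 1.76 and Tnfsf10, the death ligand TRAIL, 1.11 against 0.484, both above in 13 of 13. Cd244a, an NK receptor of the SLAM family, averaged 1.51 against 0.703. Gm43042, Hspb11, Mospd1, Cited4, Mras and Apol9b were the other 6.

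The higher genes lay close to the 2-fold limit, and the way cells were weighted moved them across it. The log2 difference of Gzma was 1.13 with equal weight per clonotype, 0.98 with cells pooled, 0.78 with cells thinned to 2000 UMIs and 0.86 with clonotypes of at least 20 cells. For Ccl5 the values were 1.02, 0.88, 0.71 and 0.77, and for Cd8a 1.49, 1.19, 1.34 and 0.93. All kept their direction, but after thinning Cd244a was the only one of the 12 still counted. The larger members thus lay nearer to the single cells than the smaller ones did in these 3 genes.

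Counted by list, 13 of 14 cytotoxic genes lay above the single-cell level, 2 of them over 2-fold (Gzma and Tnfsf10), with a median log2 difference of 0.62, and their summed level was 360 against 194. Gzmb was at 62.8 and 34.3 and Fasl, a death ligand, at 3.48 and 1.83. Of 7 NK receptor genes 6 lay above, with a median of 0.69. TCR signalling genes lay above for 14 of 18, but by little, with 0 counted and a median of 0.10. Heat shock and dissociation genes lay above for 4 of 6, with 0 counted and a median of 0.04. Of 17 residency and gut homing genes compared, 12 lay above and 5 below, with a median of 0.17. Only Itga4, an integrin chain, was counted among them, and it was lower. Itgae, the integrin chain that binds IEL to the epithelium, was at 8.75 against 4.62, a log2 difference of 0.91, and was not counted.

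Naive, regulatory and type 17 genes were lower as lists. All 10 compared genes of naive and circulating T cells lay below, 8 of them counted (Cd28, S1pr1, Lef1, Cd27, Klf2, Tcf7, Ccr7 and Satb1), with a median log2 difference of -1.65. Tcf7 averaged 0.488 against 2.41, with a UMI in 38.2% of single cells. Of 6 regulatory T cell genes 5 were counted lower (Ikzf2, Il10, Tnfrsf18, Izumo1r and Foxp3), with a median of -1.94, although Foxp3 itself was found in 6.06% of the single cells. Of 5 type 17 genes 4 were counted lower (Il17a, Maf, Il22 and Ccr6), with a median of -1.51 and Il17a in 11.5% of single cells. Genes that nearly every cell expressed were also among the 91: Tmsb10, an actin-binding peptide detected in 99.4% of single cells, averaged 20.9 against 49.4, and Bhlhe40, a transcription factor of resident T cells detected in 74.5%, averaged 3.26 against 7.30. The B cell gene Ighm was at 0 in the members and 0.791 in the single cells.

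The single cells of this comparison were of more than 1 kind, and Cd8a told them apart. A Cd8a UMI was present in 70.1% of the member cells (64.7 to 75.2%) and in 43.6% of the single cells (35.9 to 51.6%). Among the 68 single cells that shared a CDR3 with another clonotype it was present in 69.1% (56.7 to 79.8%), and among the 97 that shared none in 25.8% (17.4 to 35.6%). This split was chosen after values were seen.

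Among cells with Cd8a, member and single cells lay closer together. With cells pooled, Gzma was at 228 in member cells with a Cd8a UMI and Ccl5 at 307. In the 25 single cells that had Cd8a and shared no CDR3, Gzma was at 219 (211 to 226) and Ccl5 at 281. With equal weight per clonotype and all 72 single cells with Cd8a, Gzma was at 237.5 against 202.2 and Ccl5 at 330.5 against 280.4. Among cells with a Cd8a UMI, 12 clonotypes against 72 single cells, 15 of 3678 genes were counted higher and 16 lower. The earlier genes had been chosen from these same cells, so their sides with and without Cd8a were partly set in advance. Of the 11 earlier higher genes other than Cd8a, 11 lay above 0, against 51.7% of all genes, and 1 was counted. Of the 91 lower genes 75 lay below 0, against 48.3% of all genes, and 5 were counted. Among cells without one, 7 clonotypes against 93 single cells, 109 of 3806 genes were counted higher and 194 lower, among them 5 of the 11 and 88 of the 91. Gzma was then at 133 (equal weight, 68.5 to 264 over 7 clonotypes) against 31.4 (29.9 to 32.9). The 72 single cells with neither Cd8a nor a shared CDR3 had Gzma at 16.7, Tnfrsf4 at 5.06, Klf2 at 3.49, Il17a at 38.8 and Foxp3 at 1.33.

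The 13 Cd4 clonotypes without Fcer1g also formed a series among themselves. Cd8a over all cells of a clonotype was lowest in clonotype 9, at 1.98 (1.43 to 2.67), and highest in clonotype 24, at 26.3 (22.9 to 30.1). From low to high the order was 9, 13, 5, 11, 7, 18, 8, 10, 33, 26, 17, 21 and 24. Gzma was at 99.4, 126, 132, 141 and 114 in the first 5, at 186 in clonotype 18, and at 267, 292, 263, 324, 280, 318 and 301 in the last 7, so that the 5 lowest for Cd8a were the 5 lowest for Gzma. Ccl5 ran from 80.2 in clonotype 9 to 523 in clonotype 33. Lag3, an inhibitory receptor, was at 0.0842 to 0.492 in the first 5 and at 1.34 to 3.93 in the last 4. Ctla4, an inhibitory receptor of the CD28 family, ran the other way, from 15.7 in clonotype 9 to 1.11 in clonotype 24.

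Over the 13 clonotypes, all from 1 pool, Cd8a correlated with Gzma at Pearson r = 0.88 and Spearman rho = 0.90, and at r = 0.90 without the 2 clonotypes farthest from the median. With Ccl5 the values were 0.61, 0.71 and 0.83, with Lag3 0.84, 0.91 and 0.78, and with Ctla4 -0.75, -0.75 and -0.71. With Gzmb they were 0.44, 0.55 and 0.81, and with Cd5 -0.03, -0.02 and -0.47. Cd8a correlated with the median UMI count at 0.40. The 8 genes compared in this way were chosen after their values were seen, and these are descriptions of 13 clones.

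**Figure D4:**
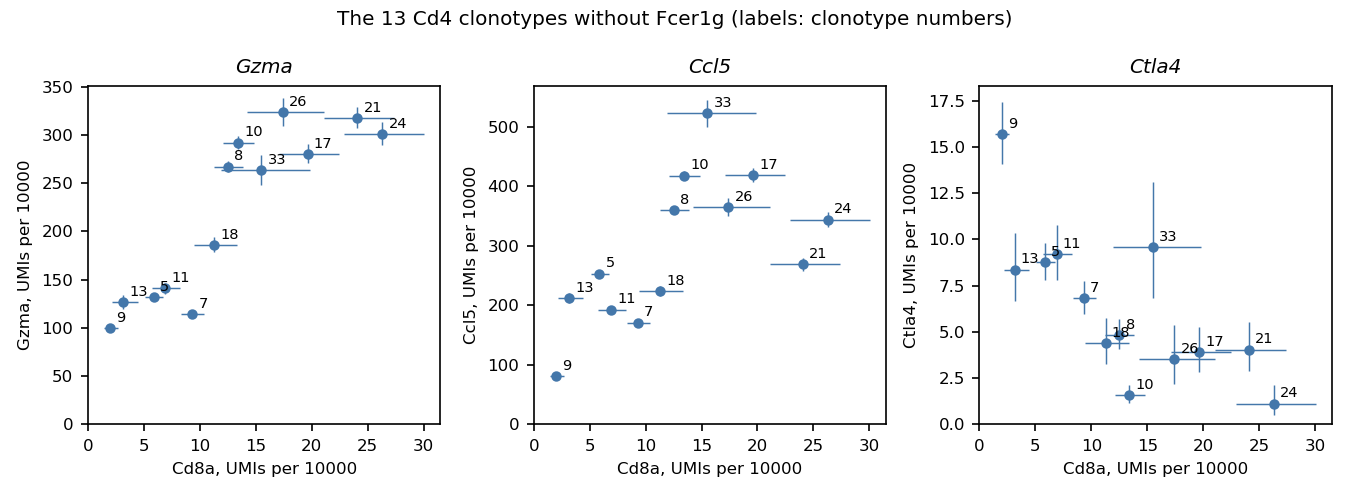
Level of Gzma, Ccl5 and Ctla4 (vertical axes) against Cd8a (horizontal axis), in UMIs per 10000, in the 13 Cd4 clonotypes without Fcer1g, numbered, with exact 95% Poisson intervals. Clonotype 9 was lowest for Cd8a, Gzma and Ccl5 and highest for Ctla4, and clonotype 24, highest for Cd8a, was lowest for Ctla4.

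Clonotype 9, with 40 cells, stood at the low end of that order. Its Il17a level was 18.6 and its Il22 level 9.76, both cytokines of type 17 cells, and 17.5% of its cells had a Cd8a UMI. It carried 1 TRA and 2 TRB chains, as 2 TRB chains were also recorded for clonotype 29. Removing cells with 2 or more TRB or 3 or more TRA chains as possible doublets took away most of both clonotypes.

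The genes of the Cd4 comparison were followed through the size classes, here over pooled cells. From single cells to clonotypes of 2, of 3 to 9 and to the members, Cd8a was at 4.71, 7.54, 8.83 and 10.9 in old IEL and at 0.687, 1.87, 3.77 and 7.28 in young IEL. It was lower again in the 3 largest clonotypes, at 7.50 and 2.81. Gzma was at 99.4, 103.6, 165 and 197 in old and 38.8, 106, 173 and 220 in young IEL. By value both genes were ordered by size in both pools up to the members. In old IEL, intervals overlapped between single cells and clonotypes of 2 for Gzma (97.4 to 101 and 98.0 to 109) and between clonotypes of 2 and of 3 to 9 for Cd8a (6.08 to 9.24 and 8.11 to 9.59). The old single cells held more Cd8a than the young.

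Tnfrsf4 was lower at each step by value, at 2.60, 1.39, 0.617 and 0.0679 in old and 2.13, 1.07, 0.376 and 0.111 in young IEL, with overlapping intervals for clonotypes of 2 and of 3 to 9 in old IEL (0.811 to 2.23 and 0.439 to 0.843). Klf2 was at 2.26 in old single cells and under 0.51 in all larger classes, and at 5.73, 1.09, 0.395 and 0.167 in young IEL. The numbers of cells behind these values were 165, 19, 109 and 308 in old and 443, 102, 294 and 99 in young IEL. Of the 12 higher genes, 12 were also above the single-cell level in the mid-sized clonotypes of young IEL, and of the 91 lower genes 87 were below, against 47.8% of all genes that were below.

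**Figure D5:**
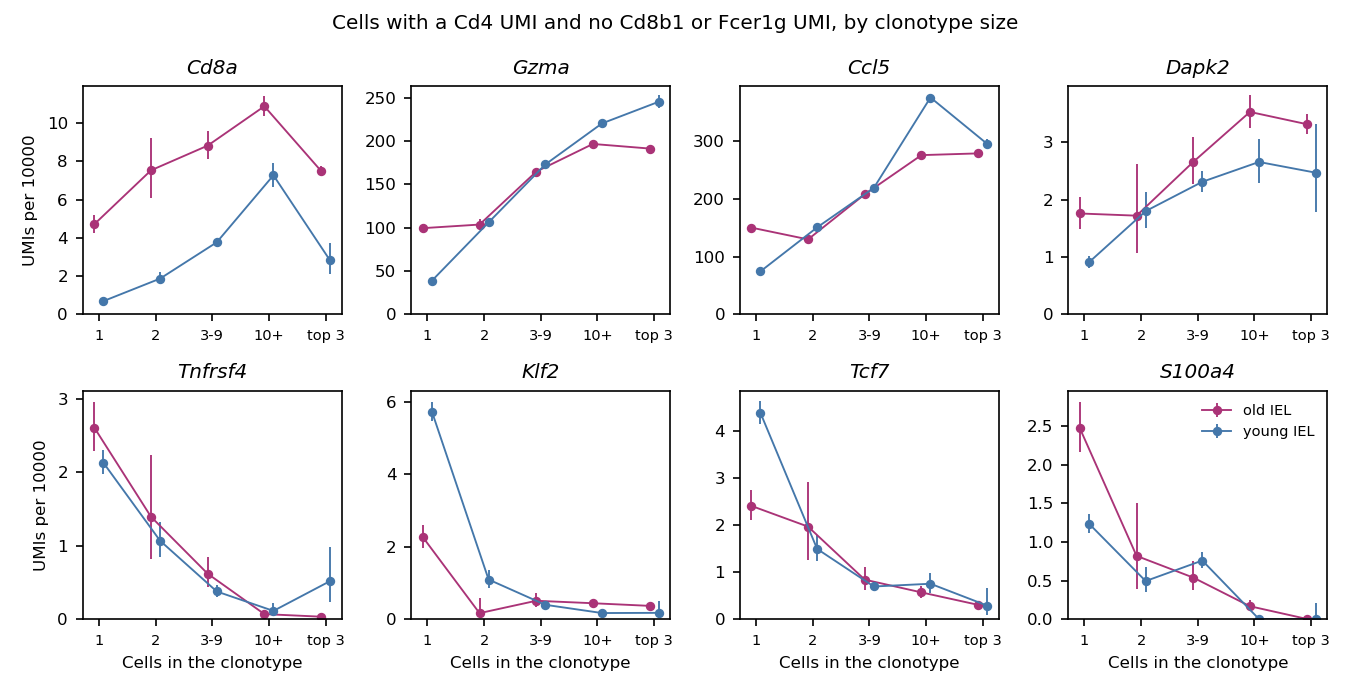
Level in UMIs per 10000 (vertical axes) of 8 genes in cells with a Cd4 UMI and no Cd8b1 or Fcer1g UMI, by the number of cells in the clonotype (horizontal axes; top 3 are the 3 largest clonotypes), in old and young IEL with exact 95% Poisson intervals. The 8 genes were chosen after their values were seen; Cd8a and Gzma were higher and Tnfrsf4 lower in the mid-sized clonotypes than in single cells in both pools.

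The Cd8b1 cells gave less secure values. In cells with a Cd8b1 UMI and no Cd4 UMI, 74 cells of 5 clonotypes (7, 12, 22, 23 and 32) faced 101 single cells; 27 of 3750 genes were higher (0.72%) and 57 lower (1.52%), many at under 1 UMI per 10000. After thinning the count went from 84 to 481, so these calls are weak. Clonotype 7 entered with its cells that had no Cd4 UMI, although it was classed as Cd4; with the 4 Cd8b1 clonotypes alone, 22 genes were higher and 53 lower, 11 and 38 of them shared with the first count. Tyrobp, an adaptor of NK receptors, averaged 0.706 against 4.31, with a UMI in 14.9% of single cells. Fcer1g was at 1.45 against 4.65, so the single cells held more Fcer1g cells than the clonotypes did. Klf2 averaged 0.267 against 1.29, and Tigit, an inhibitory receptor, 0.645 against 1.81. Ifngr1, a receptor chain for interferon γ found in 70.3% of the single cells, averaged 1.72 against 3.68, and was no longer counted with the 4 Cd8b1 clonotypes alone (1.92). Gzma was not among the genes counted, and 0 of 14 cytotoxic genes were counted in either direction, with a median of 0.18.

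Among cells with an Fcer1g UMI and no Cd4 or Cd8b1 UMI, fewer genes were counted. Between 218 cells of 13 clonotypes and 286 single cells, 1 of 3761 genes was higher (0.0266%) and 17 were lower (0.452%). The 13 included clonotypes 4, 6 and 29, classed as Cd4 with Fcer1g, through their cells without a Cd4 UMI. With the 10 clonotypes that had neither coreceptor alone, 2 genes were higher (Zeb2 and Fas) and 23 lower, 1 and 16 of them shared with the first count. The higher gene was Zeb2, a transcription factor of terminal effector cells, at 0.345 to 2.16 with a mean of 1.37 against 0.601, above in 12 of 13 clonotypes, with a UMI in 44.5% of member and 24.1% of single cells. Zeb2 was not above the single-cell level in young IEL. Trdc averaged 0.165 against 0.943, with a UMI in 23.4% of single cells, and Trdv2-2 was lower too. Against the single cells with both a TRA and a TRB alone, the direction for Trdc turned, to a log2 difference of 1.02. Hist1h1b, a histone gene of dividing cells, averaged 0.0451 against 0.864, in 4.55% of single cells. Epcam averaged 0.322 against 0.994 and was found in 12.8% of member and 37.4% of single cells; its part in the other differences was not tested. Ccl5 was at 366 against 325, and 0 of 14 cytotoxic genes were counted, with a median log2 difference of 0.17.

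When the 255 single cells that shared a CDR3, and clonotype 6, were left out, more genes were counted. Of the 40 genes lower over all cells, 40 stayed below 0, and 62 genes were counted, of which Mras, Mospd1 and Selenom were higher. In the Cd4 comparison 242 genes were counted, 79 higher and 163 lower, all 103 earlier genes kept their side, and Gzma stood at 217 against 64.9 and Cd8a at 13.4 against 3.20. Itgae, Fasl, Gzmb, Ccl4 and Cd7 were then among the higher genes.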

How the data were processed

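T cells of 4 pools were profiled, 1 per age and organ, each from 3 mice per the labels; a legend among the sources used here gives 6 young mice, which was not resolved. The authors deposited UMI counts per gene and cell and TCR contig tables, made with Cell Ranger 7.0.1 on mm10 per the labels' processing notes, with cells assigned to pools by hashtag; raw sequencing entries were not used here. Cells joined to contigs by barcode, and clonotype size was the number of matrix barcodes. The members, gene lists and comparisons were chosen with earlier results of these data known.

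Counts were summed per clonotype and expressed per 10000 UMIs. Ratios took the mean over clonotypes against the pooled single cells, with a pseudocount of 0.1, for genes at 0.5 or more on either side; TRA and TRB segment genes (γ and δ segments were kept), and in gates Cd4, Cd8b1 and Fcer1g, were left out. A gate needed 5 clonotypes of 5 gated cells and 30 single cells. Genes named are those counted (2-fold, 80% of clonotypes), ordered by ratio, and the members of the gene lists. Shares were compared after thinning to 2000 UMIs, which left out 6 member and 7 single cells. Doublets were kept; Scrublet marked 4 cells (0.0688%) and so did not work. CDR3 bases were matched to germline V and J segments of GRCm38 with GENCODE M21 gene models, and D segments were not matched. Python 3.11.15, numpy 2.4.6, scipy 1.17.1, pandas 2.3.3, scanpy 1.11.5 and matplotlib 3.10.9 were used. The gene comparison was run on simulated counts with changes larger than 2-fold and no spread between clonotypes. That run did not cover 2-fold changes or genes near the minimum level.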

Additional observations from a re-analysis of the deposited data

Results flagged for a closer look

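Differences between mid-sized and single-cell clonotypes of opposite direction in old and young IEL were searched for in part of the genes. The search took the lineage genes and those ranked first by ratio or within a gene list, if at least 2-fold apart in both ages. It gave 2 instances. Over all cells, Cd74 was lower in the members of old IEL, at 0.208 against 0.701 (log2 ratio -1.38), and higher in the mid-sized clonotypes of young IEL, at 0.980 against 0.249 (1.63). In the Cd8b1 cells, the histone gene Hist1h2ae was at 0.067 against 0.608 in old IEL (-2.08) and at 2.81 against 1.35 in young IEL (1.01). Arrdc4, counted lower in the Fcer1g cells without coreceptor, lay outside this search. It was at 0.249 against 0.713 in old IEL (-1.22) and at 1.57 against 0.462 in young IEL (1.57). Opposite directions of any size were more common. In the Cd8b1 cells, 16 of the 27 higher and 44 of the 57 lower genes kept their direction in young IEL. The difference between the ages was not tested for any gene, since each age had 1 pool.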

How the results depend on the processing

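No paired analysis was possible because each age and organ had 1 pool and no replicates. Counts of genes past 2-fold depended on the settings. Over all cells, where 40 genes were counted, a pseudocount of 0.5 gave 14, a minimum level of 0.2 gave 75 and of 1 gave 17, single cells with no shared CDR3 gave 62 and those with both chains 63. In the Cd4 comparison (103 genes) the same settings gave 48, 179, 54, 242 and 223, and thinning gave 162; only cells with a Cd8a UMI gave 31, only cells without one 303, and only cells without one and with no shared CDR3 among the single cells 393. In the Cd8b1 cells (84 genes) they gave 12, 253, 19, 177 and 152, with 481 after thinning. In the Fcer1g cells without coreceptor (18 genes) the pseudocount gave 7, the minimum levels 35 and 4, and a clonotype size of at least 20 gave 37.

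With a clonotype size of at least 20, the Cd4 clonotypes with Fcer1g went from 4 to 2, Cd8b1 with Fcer1g from 1 to 0, Cd8b1 without from 3 to 1 and neither from 10 to 3; at thresholds of 30% Cd8b1, 40% Cd4 and 30% Fcer1g, Cd8b1 with Fcer1g went from 1 to 2 (clonotype 27), and thinning moved clonotype 29 from Cd4 with Fcer1g to neither. Log2 ratios of single genes were followed only for the lineage genes and those ranked first by ratio or within a gene list. Over all cells, Trdc turned sign to 0.57 against single cells with both chains and Il22 to 1.16 without possible doublets. In Cd4 cells Il22 turned to 0.30 after thinning. Among Cd4 cells with Cd8a, Areg turned to 0.78, Foxp3 to 0.20 and Ikzf2 to 0.20. Lower genes that were not followed also lay above 0 there, such as Lef1 (0.33), Satb1 (0.17) and Cd27 (0.07), while 75 of the 91 lay below. In Cd8b1 cells after thinning Ten1 turned to -0.10, Plec to -0.0136 and Slc23a2 to -1.41. In Fcer1g cells Lgals1 turned to 0.17 after thinning and Trdc to 1.02 against single cells with both chains. The cause was not tested. Of 3597 ratios of the genes followed over all alternatives, 2635 were the same, 951 moved and 11 turned sign. Pooling cells, leaving out possible doublets, the largest member, clonotypes 6, 8 and 20, or cells with Trdc, and keeping only the clonotypes classed like the cells compared (75 genes in Cd8b1 cells, 25 in Fcer1g cells), kept each count within 1.5 times. The Cd8a split and the last 3 of these were chosen after seeing the data. The Cd8b1 comparison at a size of 20, and Cd4 cells with Cd8a and no shared CDR3, had too few cells. Clonotypes of 10 to 77 cells limit all genes under 1 UMI per 10000.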
